A study of Populus tremula x Populus alba with 3 samples.

Results

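Chaperone and protein folding genes were examined in unopened apical buds of a hybrid poplar, Populus tremula x Populus alba. They were taken from the authors' deposited table of 2151 genes that differed between PtaDML10 RNAi lines and wild type. A gene was a member when its Arabidopsis description named a heat shock protein, HSP20, DnaJ, a chaperone or chaperonin, a cyclophilin, rotamase, FKBP or peptidyl-prolyl isomerase, a calreticulin, a prefoldin or a protein disulfide isomerase. Descriptions with "transcription factor", "thioredoxin" or "tetratricopeptide" would have been removed, and 0 genes were. This left 24 members among 1805 genes with a description, while the count table holds 41335 genes. Genes outside the authors' table carry no name here, so these 24 are the listed members of the families and not the families themselves.

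The groups were PtaDML10 RNAi (n = 2 libraries, from lines KD2 and KD5) and wild type (n = 1 library), all in clone INRA 717-1B4. PtaDML10 is named after the DEMETER-like DNA demethylases, which remove methylated cytosine, and RNA interference is meant to lower its transcript. The promoter that drives the RNAi construct is not given in the sources used here, and KD2 and KD5 are 1 line each. Potted plants had 4 weeks of long days (16 h light, 21 °C), 12 weeks of short days (8 h, 19 °C) and 4 weeks of cold at 4 °C before their return to long days. From each genotype 15 buds of 15 plants were collected while still closed, and it is not stated whether each library is a pool of them.

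Chaperones keep other proteins from clumping and help them to fold. HSP70 proteins bind unfolded stretches with the help of DnaJ (HSP40) partners, small heat shock proteins hold unfolded proteins without using ATP, and chaperonins enclose them in a barrel, which in chloroplasts and mitochondria is closed by a smaller co-chaperonin and in the cytosolic type by a built-in lid. Cyclophilins and FKBPs are peptidyl-prolyl isomerases, which turn the bond before proline, and calreticulins retain glycoproteins in the endoplasmic reticulum until they are folded. In plants many members of these families work inside the chloroplast.

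The libraries held 4509887 counts (KD2), 4692056 counts (KD5) and 6829583 counts (wild type). Values are CPM, counts per 1000000 after scaling by library size and TMM factor, and CPM is not corrected for transcript length, so levels are compared between libraries and not between genes. At the PtaDML10 locus, Potri.010G234400, an identifier taken from published naming and not paired with the gene in the files, 13.23 CPM in KD2 and 17.01 CPM in KD5 stood against 9.59 CPM in wild type. Its log2 fold change of 0.66 (SE 0.31) did not pass the test (adjusted p = 0.151 by edgeR's quasi-likelihood test) and goes against the direction of a knockdown. Every direction below is therefore that of the libraries labelled KD2 and KD5. Wild type has 1 library and so no SD, and whether the RNAi libraries stand for separate plantings is not stated. The p-values of the fit then measure only the spread between these libraries, and the fit pooled that spread over genes of like expression level. An SE thus follows the counts of a gene more than the agreement of KD2 and KD5 at that gene.

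Most of the 24 genes were lower in the RNAi libraries. Both RNAi libraries lay below wild type for 19 genes and above it for 5, so no member had its RNAi values on both sides of wild type. The median log2 fold change was -0.80 over the members and 0.02 over the 23089 genes tested. The 19 lower genes hold the plastid chaperonins, the FKBPs, the cyclophilins, the small heat shock proteins, a cytosolic HSP70, a cytosolic chaperonin subunit and 6 DnaJ genes. The 5 higher genes are matches of calreticulin CRT3, mitochondrial CPN10, the DnaJ protein ARG1, a second DnaJ gene and an HSP110-type member of the HSP70 family.

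These genes were chosen on the same contrast, so their fold changes are a description with no test. All 24 passed the low-count filter, and edgeR's quasi-likelihood test called 23 of them at an adjusted p under 0.05, 18 lower and 5 higher. Over all genes tested, 13.1% were called, 8.05% lower and 5% higher. Both RNAi libraries lay on the same side of wild type for 78.4% of these genes, and below it for 38.4%. Of the members 20.8% were higher in the KD lines, against 35.5% of the 2151 genes listed in the authors' deposited table, a difference that was not tested. With size-only scaling the calls among members were 11 lower and 5 higher, where 976 of all genes tested were called lower and 3004 higher. With loess normalization, which removes any trend of the ratio with expression level, they were 8 lower and 4 higher among members, and 460 lower and 245 higher over all genes. DESeq2 called 4 members lower and 1 higher, with 513 lower and 42 higher over all genes. Without a low-count filter edgeR called 0 genes, members included, although all 24 members had an unadjusted p under 0.05. At the edge of that table stood the DnaJ gene Potri.007G136000, with an authors' adjusted p (FDR) of 0.0496, where the highest FDR listed is 0.0499. No gene just outside the table can be named, since its genes alone carry descriptions. The authors' deposited log2 fold changes and those given here differed by at most 0.014 for any member.

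**Figure D1:**
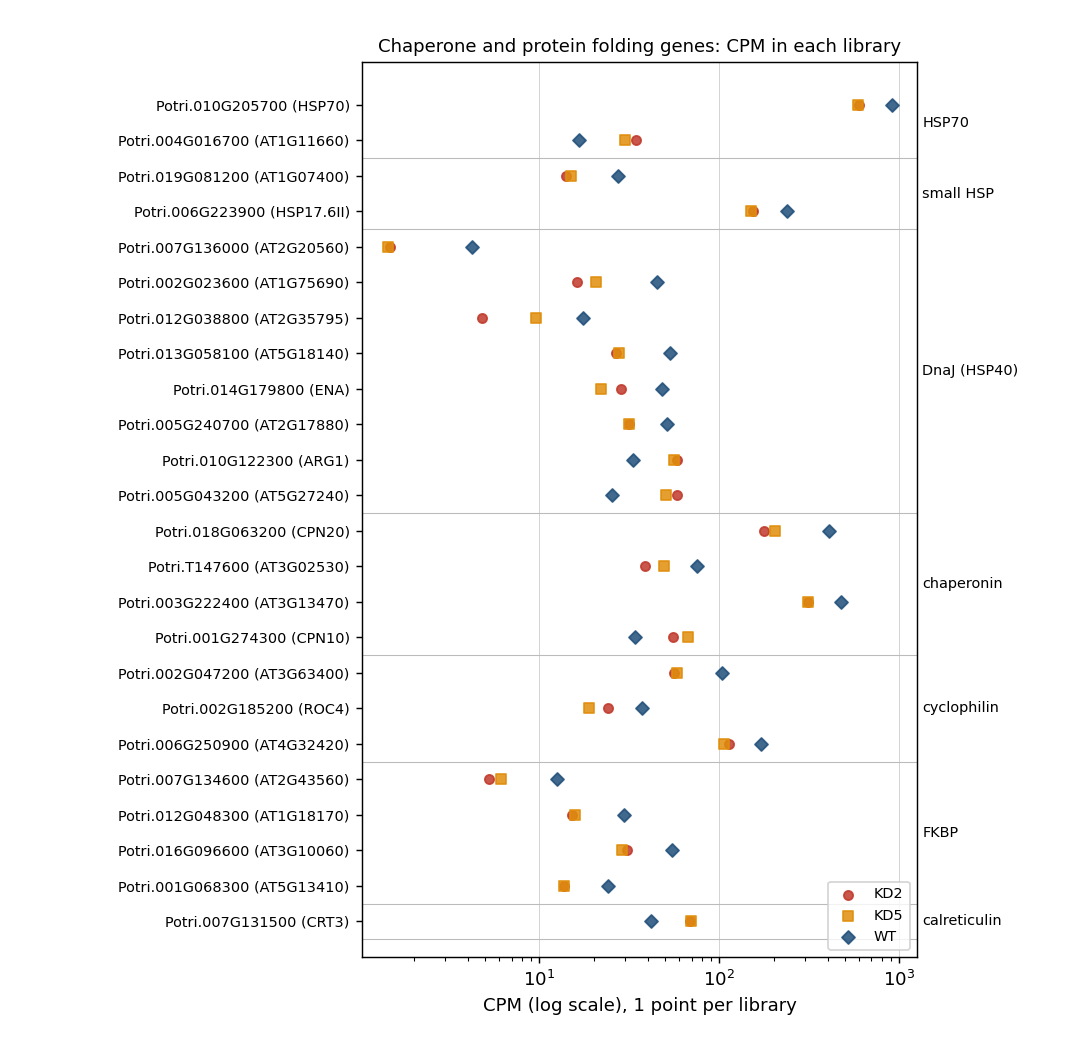
CPM of each of the 24 genes (log axis) in the KD2, KD5 and wild type (WT) libraries, 1 point per library, grouped by chaperone class. For 19 genes both RNAi points lie left of the wild type point, and for 5 genes (AT1G11660, ARG1, AT5G27240, CPN10 and CRT3) both lie right of it.

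The HSP70 class had 2 members, which differed in direction. Potri.010G205700 matches HSP70 (AT3G12580), in Arabidopsis a cytosolic HSP70 induced by heat. It had 2851 counts in KD2 and 2861 in KD5, against 5566 in wild type, which is 598.6 and 586.4 CPM against 904.9 CPM. The RNAi libraries lay close together and below wild type, at a log2 fold change of -0.61 (SE 0.15). With loess normalization this value was -0.07 and the gene was not called. With libraries scaled by size only it was -0.39.

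Potri.004G016700 matches AT1G11660, an HSP70 family gene of the HSP110 type, whose relatives in yeast act as nucleotide exchange factors for HSP70. It had 34.43 CPM in KD2 and 29.92 CPM in KD5, against 16.58 CPM in wild type. Both RNAi libraries were above wild type, by a log2 fold change of 0.96 (SE 0.24). With loess normalization it stood at 0.92 and was not called.

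Both small heat shock protein genes were lower in the RNAi libraries. The match of HSP17.6II, a class II cytosolic protein in Arabidopsis (Potri.006G223900), had 153.7 CPM in KD2 and 149.4 CPM in KD5, against 237 CPM in wild type. Its log2 fold change was -0.65 (SE 0.16), and it was not called at -0.43 with size-only scaling or at -0.35 with loess normalization. Potri.019G081200, which matches the cytosolic class I gene AT1G07400, had 14.07 CPM in KD2 and 14.96 CPM in KD5, against 27.48 CPM in wild type. Its log2 fold change of -0.92 (SE 0.25) was called under both of these scalings, at -0.70 and -0.99.

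The DnaJ class was the largest, with 8 genes, and spanned the widest range of log2 fold changes, from -1.53 to 1.10. DnaJ proteins carry a J domain that stimulates the ATPase of HSP70, although proteins named for the cysteine-rich domain of DnaJ can lack it. Of the 8, 6 were lower in both RNAi libraries and 2 higher in both.

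Potri.002G023600 matches AT1G75690, known in Arabidopsis as LQY1, a thylakoid zinc finger protein of photosystem II repair. It had 16.17 CPM in KD2 and 20.70 CPM in KD5, against 45.2 CPM in wild type, a log2 fold change of -1.29 (SE 0.22). The other gene with the cysteine-rich domain, Potri.014G179800 (ENA), had 28.55 CPM in KD2 and 22.13 CPM in KD5, against 47.8 CPM in wild type. KD2 was the lower RNAi library at the LQY1 match and KD5 at ENA, and at both genes wild type exceeded each of them.

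Potri.012G038800 matches AT2G35795, in Arabidopsis a TIM14-type J protein of the mitochondrial import motor. It had 23 counts in KD2 and 47 in KD5, against 107 in wild type, or 4.83 and 9.63 CPM against 17.4 CPM. The RNAi libraries stood further apart here, as a ratio, than at any other member, with a mean of 7.23 ± 3.40 CPM (SD, n = 2). The log2 fold change was -1.26 (SE 0.32). Its size rested on KD2, since without that library it was -0.83. With loess normalization it stood at -1.36 and was not called.

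Of the remaining lower DnaJ genes, Potri.013G058100 (AT5G18140) had 26.66 CPM in KD2 and 27.67 CPM in KD5, against 53.49 CPM in wild type. Potri.005G240700 (AT2G17880) had 31.28 CPM in KD2 and 31.36 CPM in KD5, against 51.38 CPM in wild type. Their log2 fold changes were -0.98 (SE 0.21) and -0.71 (SE 0.20), and the second was called neither with size-only scaling (-0.49) nor with loess normalization (-0.71). Potri.007G136000 (AT2G20560) was the member with fewest counts, at 7 in KD2 and 7 in KD5 against 26 in wild type. Its log2 fold change of -1.53 had the largest SE among the members, 0.76, and it was the member that the fit did not call. Its pooled RNAi counts stood at 0.343 of the wild type level, and counting error alone allows 0.166 to 0.682 (exact 95% interval).

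The 2 higher DnaJ genes had similar values in KD2 and KD5. ARG1 (Potri.010G122300), a J-domain protein needed for the gravity response in Arabidopsis, had 58.16 CPM in KD2 and 55.75 CPM in KD5, against 33.33 CPM in wild type. Potri.005G043200 (AT5G27240) had 278 counts in KD2 and 246 in KD5, against 156 in wild type, or 58.37 and 50.42 CPM against 25.36 CPM. In both genes the RNAi libraries lay above wild type, with log2 fold changes of 0.77 (SE 0.21) and 1.10 (SE 0.22). The second was the largest positive value among the members and was called under every scaling and by DESeq2, but not without the low-count filter.

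**Figure D2:**
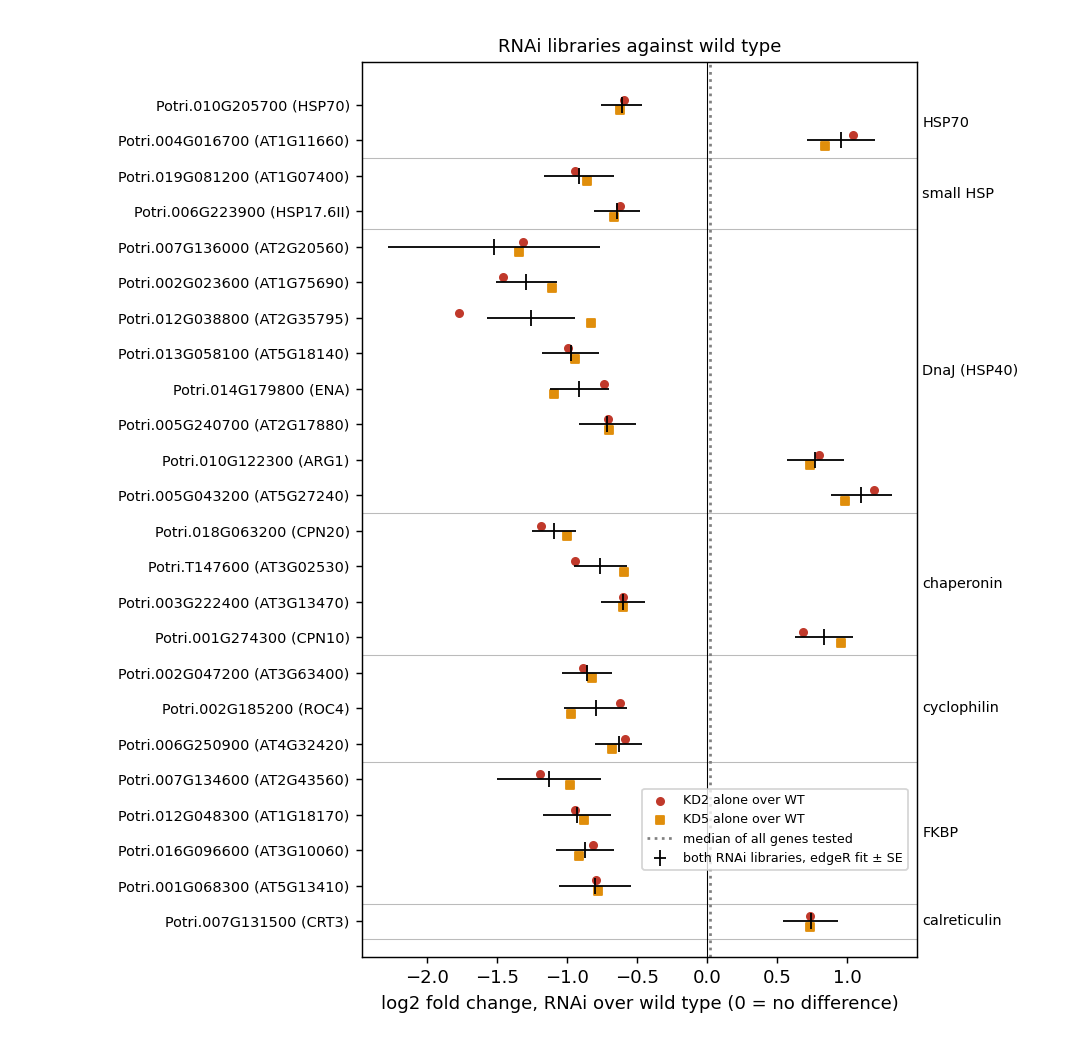
Log2 fold change of the RNAi libraries over wild type for each gene, with the edgeR fit on both libraries (bar ± SE) and the ratio of KD2 alone (circle) and KD5 alone (square) to wild type; the dotted line is the median of all genes tested, 0.02. The 2 lines lie on the same side of 0 for all 24 genes and stand furthest apart at Potri.012G038800, where KD2 is at -1.77 and KD5 at -0.83.

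The chaperonin class had 4 genes, 3 lower and 1 higher, and the 2 co-chaperonin genes among them went opposite ways. CPN20, the co-chaperonin of the chloroplast, works with the CPN60 barrel that folds the large subunit of Rubisco. Its match Potri.018G063200 had 847 counts in KD2 and 988 in KD5, against 2499 in wild type, or 177.8 and 202.5 CPM against 406.3 CPM. Both RNAi libraries were below wild type, at a log2 fold change of -1.10 (SE 0.16), or -0.73 with loess normalization.

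Potri.003G222400 matches AT3G13470, a beta subunit of the chloroplast CPN60 barrel. It had 311.4 CPM in KD2 and 311.3 CPM in KD5, against 473 CPM in wild type. The RNAi libraries were nearly equal, at a log2 fold change of -0.60 (SE 0.16). With loess normalization it was -0.17 and with size-only scaling -0.38, and under neither was the gene called.

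The mitochondrial co-chaperonin CPN10 stood higher in the RNAi libraries. Its match Potri.001G274300 had 55.01 CPM in KD2 and 66.61 CPM in KD5, against 34.14 CPM in wild type, with a log2 fold change of 0.83 (SE 0.20). Potri.T147600 matches AT3G02530, a subunit of the cytosolic chaperonin CCT (TCP-1), which folds actin and tubulin. It had 38.84 CPM in KD2 and 49.39 CPM in KD5, against 74.95 CPM in wild type. Its log2 fold change of -0.76 (SE 0.19) became -0.71 with loess normalization, and it was then not called.

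The 3 cyclophilin genes were lower in both RNAi libraries. Potri.002G047200 (AT3G63400) and Potri.006G250900 (AT4G32420) match nuclear cyclophilins of Arabidopsis with a domain rich in arginine and serine, a kind found with splicing factors. The first had 55.85 CPM in KD2 and 58.41 CPM in KD5, against 103.7 CPM in wild type. The second had 113.4 CPM in KD2 and 106.2 CPM in KD5, against 170.4 CPM in wild type. Their log2 fold changes were -0.86 (SE 0.18) and -0.63 (SE 0.17). The second was not called with size-only scaling (-0.42) or loess normalization (-0.41).

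ROC4, a cyclophilin of the chloroplast stroma, was represented by Potri.002G185200, with 115 counts in KD2 and 92 in KD5, against 230 in wild type. This is 24.14 and 18.86 CPM against 37.39 CPM, so both RNAi libraries were below wild type. The log2 fold change was -0.80 (SE 0.22), and the gene was not called at -0.58 with size-only scaling or at -0.84 with loess normalization.

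All 4 FKBP genes were lower in both RNAi libraries, and all match Arabidopsis FKBPs of the thylakoid lumen. Potri.007G134600 (AT2G43560) had 5.25 CPM in KD2 and 6.15 CPM in KD5, against 12.52 CPM in wild type. Potri.012G048300 (AT1G18170) had 15.12 and 15.78 CPM, against 29.43 CPM in wild type. Their log2 fold changes were -1.13 (SE 0.37) and -0.93 (SE 0.24), and the RNAi means were 0.455 and 0.525 of the wild type values.

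Potri.016G096600 (AT3G10060) had 30.86 CPM in KD2 and 28.9 CPM in KD5, against 54.79 CPM in wild type. Potri.001G068300 (AT5G13410) had 13.65 and 13.73 CPM, against 23.9 CPM in wild type. Their log2 fold changes were -0.87 (SE 0.20) and -0.80 (SE 0.26), so the 4 genes spanned a range from -1.13 to -0.80 and the lowest and highest of them differed by less than the SE of the lowest. Potri.007G134600 and Potri.001G068300 were called neither with size-only scaling (-0.91 and -0.58) nor with loess normalization (-1.24 and -0.88).

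The only calreticulin was the match of CRT3, Potri.007G131500. In Arabidopsis CRT3 is a plant-specific calreticulin needed in the endoplasmic reticulum for the folding of the immune receptor EFR. It had 329 counts in KD2 and 338 in KD5, against 255 in wild type, or 69.07 and 69.27 CPM against 41.46 CPM. The RNAi mean of 69.17 ± 0.141 CPM (SD, n = 2) lay above wild type, at a log2 fold change of 0.74 (SE 0.20). No HSP90, HSP100, prefoldin or protein disulfide isomerase gene met the membership rule.

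Members were grouped by a compartment assigned from the Arabidopsis protein, a grouping made after the values were seen and not complete. The 8 members assigned to the plastid were all lower in both RNAi libraries. They are the 4 FKBPs, ROC4, CPN20, the CPN60 beta gene and the LQY1 match, with log2 fold changes between -1.29 and -0.60 and a median of -0.90. Their summed level was 594.4 CPM in KD2 and 617.9 CPM in KD5, against 1083 CPM in wild type. CPN20 and the CPN60 beta gene held most of that sum. In KD2, KD5 and wild type, CPN20 had 177.8, 202.5 and 406.3 CPM and CPN60 beta had 311.4, 311.3 and 473 CPM. Among the other 16 members, 11 were lower and 5 higher, with a median of -0.68. The 4 cytosolic genes were lower, the 2 nuclear ones were lower, and the 2 mitochondrial ones differed in direction. The 1 gene assigned to the endoplasmic reticulum, CRT3, was higher. No compartment was assigned to 7 members, of which 4 were lower and 3 higher (AT1G11660, ARG1 and AT5G27240). These 7 are counted among the other 16 members, although the plastid is not excluded for any of them. The 2 sets were not tested against each other, since both were selected on this contrast.

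Leaf markers moved with the plastid members. The list of light-harvesting and Rubisco small subunit genes had 16 genes in the authors' table, and 16 were lower in both RNAi libraries, at a median of -0.90 on the log2 scale. Their summed level was 4541 CPM in KD2 and 4580 CPM in KD5, against 8889 CPM in wild type, and none was at 0 in any library. The meristem list had 4 genes there, and the 2 matches of SHOOT MERISTEMLESS, which maintains the shoot meristem, were both lower. Potri.011G011100 had 67.18 CPM in KD2 and 89.15 CPM in KD5, against 149.3 CPM in wild type, so this marker of the labelled tissue was present in every library. The CUC3 match was the one meristem gene above wild type in both RNAi libraries and was not called. Of the remaining markers in the table, 5 of 5 epidermis genes, 2 of 2 xylem genes and the dormancy gene DRM1 were lower. Their summed levels were 1439 and 1252 CPM against 2550 CPM in wild type for epidermis, and 26.03 and 31.56 CPM against 53.98 CPM in wild type for xylem, with KD2 before KD5. No phloem marker was matched. Every marker counted here was listed by the authors as differing in this contrast, and 64.5% of the genes they listed were lower. The part of tissue content in the chaperone values was not tested, and in bulk buds fewer cells of a type and less RNA per cell cannot be told apart.

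KD2 and KD5 could be compared with each other, a contrast that the choice of members used only through the spread that the authors' test took from these lines. With 1 library each there is no test. The median log2 ratio of KD2 to KD5 was -0.004 over the members, and 13 of 24 were lower in KD2, where 49.9% of all genes tested were. Past 1.5-fold stood 1 member, Potri.012G038800, against 13.7% of all genes tested. The ratio there was 0.501, with an exact 95% counting interval from 0.291 to 0.842. The counting interval left out 1 for 4 of the 24 members, against 20.3% of all genes tested. Besides Potri.012G038800 these were CPN20 (0.878, 0.80 to 0.964), CPN10 (0.826, 0.699 to 0.975) and the CCT gene (0.786, 0.646 to 0.956). In each of them KD2 was below KD5. These intervals cover counting error only, and the shares over all genes tested were not matched to the members by count level.

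**Figure D3:**
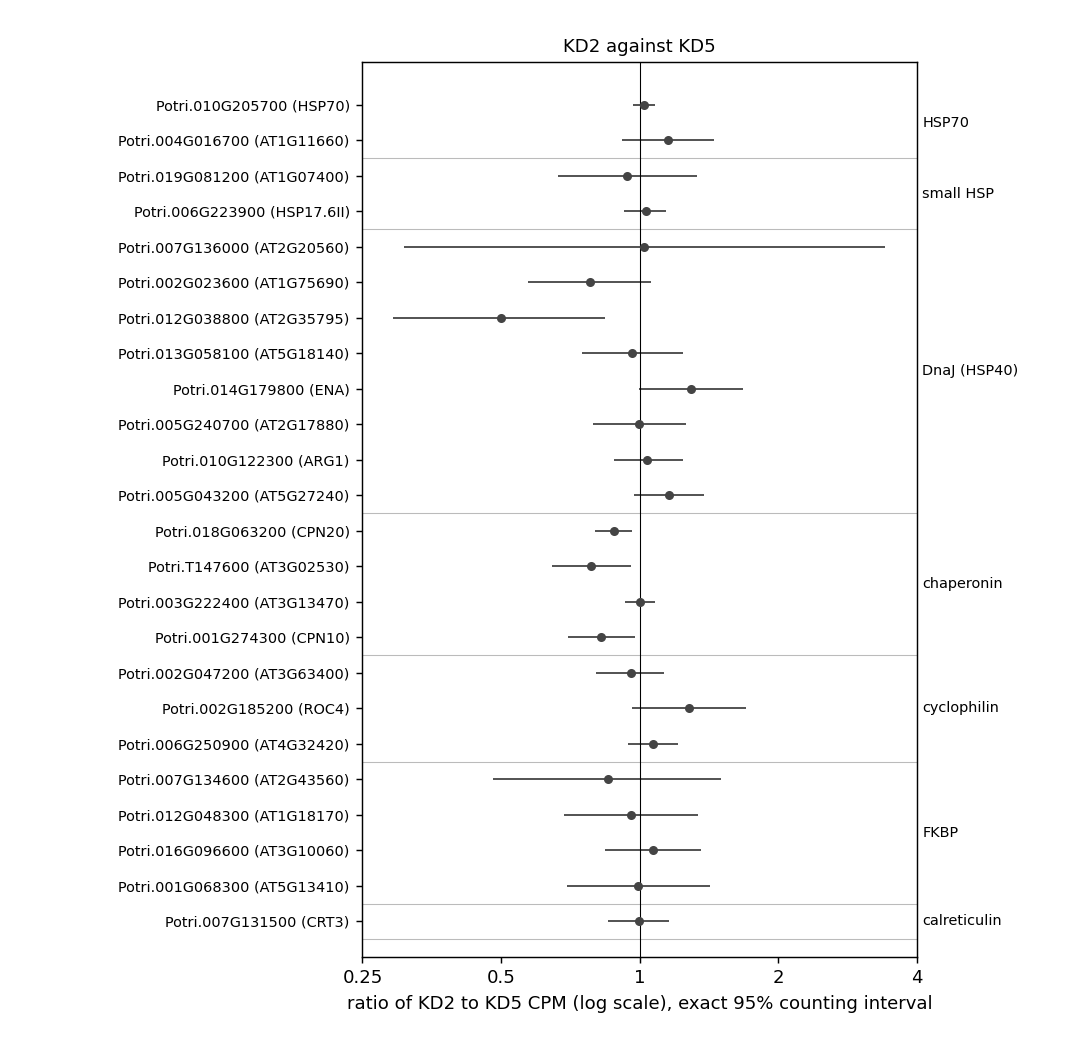
Ratio of KD2 to KD5 CPM for each gene (log axis) with its exact 95% counting interval, 1 library each. Most intervals span 1, and those of Potri.012G038800, CPN20, CPN10 and the CCT gene (AT3G02530) lie below it.

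Beyond the members, 23 genes of the authors' table were matched by words of the folding pathway. The words name regulators of the heat shock and unfolded protein responses, co-chaperones, thioredoxins and the proteasome. Of the 23 genes, 22 were called, 17 lower and 5 higher, against 13.1% of all genes tested, and they too had been selected on this contrast. Among the higher ones is Potri.015G079400 (30.65 CPM in KD2, 29.72 CPM in KD5, 14.96 CPM in wild type). Its description, an HSP90-like ATPase family protein, matched the word HSP90 and does not name a co-chaperone. The heat shock factor HSFA8 (Potri.010G104300) had 14.7 CPM in KD2 and 10.66 CPM in KD5, against 4.88 CPM in wild type. The match of HSBP, which binds heat shock factors (Potri.010G025000), had 76 CPM in KD2 and 90.38 CPM in KD5, against 130.6 CPM in wild type. HSFA8 and the HSBP match were thus on opposite sides of wild type.

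MBF1C (Potri.018G075200), a co-activator in the heat response of Arabidopsis, had 3.36 CPM in KD2 and 4.92 CPM in KD5, against 10.08 CPM in wild type. The match of BAG7 (Potri.015G126800), in Arabidopsis a co-chaperone of the endoplasmic reticulum, had 121.1 and 140.8 CPM, against 205.8 CPM in wild type. The match of IRE1-1 (Potri.005G254000), a sensor of unfolded proteins in the endoplasmic reticulum, had 25.19 and 23.98 CPM, against 13.49 CPM in wild type. Of these 3, the IRE1-1 match alone was higher in the RNAi libraries.

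The 4 SEC61 subunit genes, parts of the channel into the endoplasmic reticulum, were called lower, at log2 fold changes from -1.29 to -0.61. Thioredoxins reduce disulfide bonds. Genes with thioredoxin in the description, among them thioredoxin-dependent peroxidases, numbered 10, with 9 called lower and 1 higher. The higher one, Potri.016G122000, had 15 counts in KD2 and 8 in KD5, against 0 in wild type. The proteasome words matched 2 genes, of which a COP9 signalosome subunit match (CSN3, Potri.001G334200) was called higher. The other, a match of the proteasome subunit RPN5A (Potri.T164500), had 14 counts in KD2 and 9 in KD5, against 37 in wild type, and was not called (log2 fold change -1.33, SE 0.59).

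**Figure D4:**
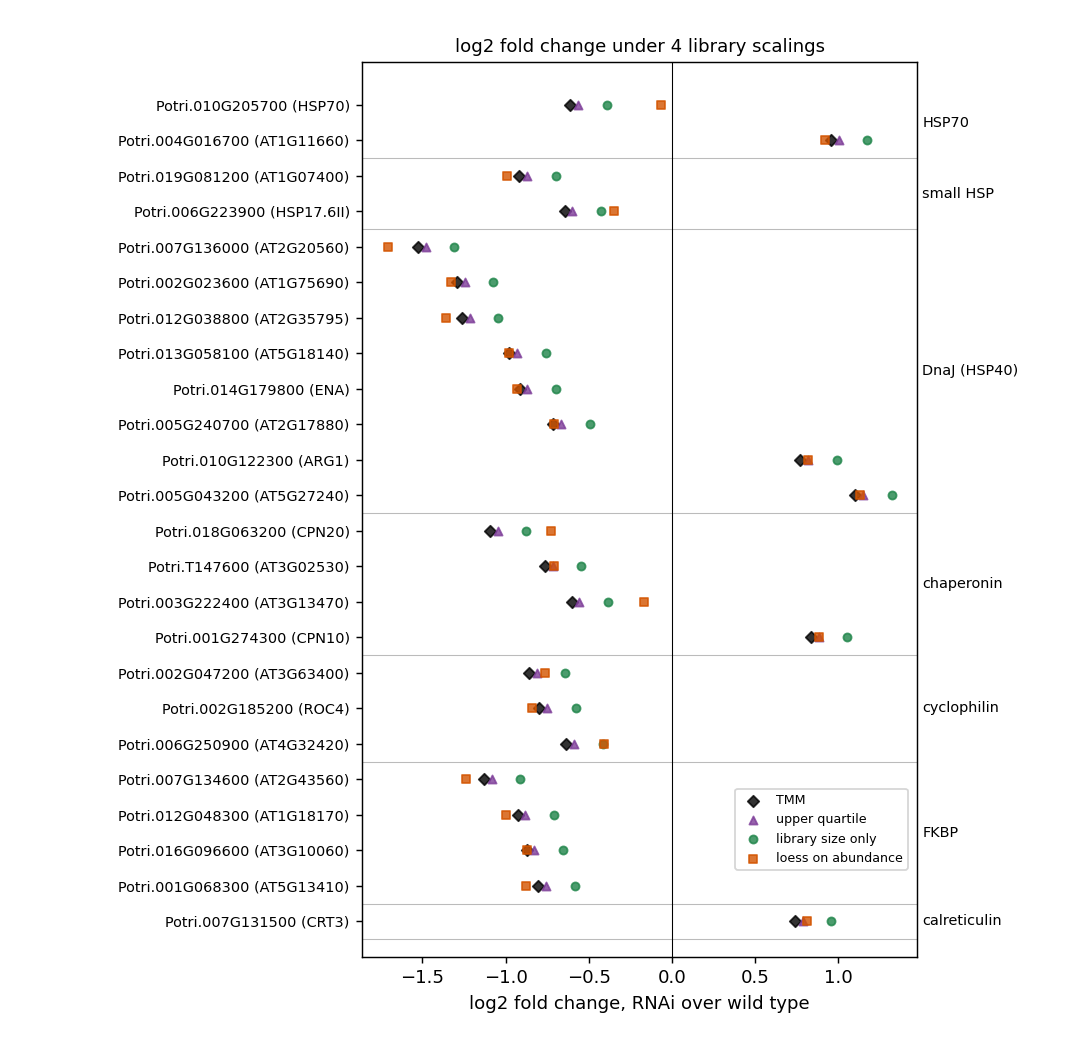
Log2 fold change of the RNAi libraries over wild type for each gene under 4 library scalings: TMM, upper quartile, library size only and loess on abundance. All 24 genes keep their side of 0, and the HSP70 match Potri.010G205700 moves most, to -0.07 with loess.

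The direction of all 24 members was the same under TMM, relative log expression, upper quartile, size-only and loess scaling. Scaling by library size alone shifted the median of all genes tested by 0.22 on the log2 scale and so brought the lower members nearer to 0 and the higher ones further from it. Loess normalization moved 5 members by more than 1.5 times, namely the HSP70, CPN20, CPN60 beta, HSP17.6II and AT4G32420 matches, each of them toward 0.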

How the data were processed

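Members and lists were chosen with earlier results of these data known. The authors deposited raw counts per gene, whole numbers with no normalization, for each library. FastQC, TopHat and edgeR are named in the submitters' processing notes. Versions, genome build and counting program were not given in the sources used here. A second deposited table, the authors' own, gives a log2 fold change, an average log2 CPM, p-values and adjusted p-values (FDR) for the KD lines against wild type, per the file headers. It also gives the Arabidopsis match. Gene coordinates and sequences were not used here.

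Counts were fitted with edgeR 4.0.16 in R 4.3.3 over all genes: filterByExpr (minimum count 10, 23089 genes kept), TMM factors of 1.06 (KD2), 1.04 (KD5) and 0.904 (wild type), and the two-sided quasi-likelihood F-test of both RNAi libraries against wild type, with Benjamini-Hochberg adjustment and a threshold of 0.05. This leaves 1 residual degree of freedom, from KD2 against KD5, so wild type is taken to vary as they do. The median prior degrees of freedom, the weight of the trend over genes, were infinite. The variance of a typical gene then came from that trend and not from its own KD2 and KD5 values. The biological coefficient of variation was 11.4%. The SE is the size of the log2 fold change divided by the square root of F. Ratios of single libraries used a prior count of 2. The fit was tested on simulated counts for this comparison (22564 genes). It called 46% of 2-fold and 88% of 4-fold changes with 7 false calls, and 0 of 22583 genes when none was changed. Simulated wild type varied as the fit assumes, so these counts cannot show how the test behaves where the real library varies more.

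Named genes were all members of classes with at most 5, and in the DnaJ class those with the 4 highest mean CPM, the 2 largest changes at 5 CPM or more and the largest in each direction. ENA fell outside this rule and was named after its values were seen. No members share an Arabidopsis locus. Reads may be split between near-identical copies, which was not examined. A count over the whole families needs gene names for all identifiers and was not made. Alternatives covered 4 other scalings, 2 other filters, DESeq2 1.42.0 and each RNAi library alone.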

Additional observations from a re-analysis of the deposited data

How the results depend on the processing

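All 24 members kept their direction under each of the 7 alternatives to scaling, filter and test. The count of members called, 23, was 12 with loess normalization on abundance, 5 with DESeq2 and 0 without a low-count filter, where edgeR's quasi-likelihood test called 0 of all genes (5051 at an unadjusted p under 0.05). DESeq2 gave no adjusted p for 10 members. Calls over all genes tested also fell with loess, with DESeq2 and without a filter, so the drop was not particular to these genes. The count called lower, 18, was 11 with size-only scaling, 8 with loess, 4 with DESeq2 and 0 without a filter, and the count called higher, 5, was 1 with DESeq2 and 0 without a filter. The 22 called pathway genes became 8 with loess, 6 with DESeq2 and 0 without a filter, alternatives chosen after seeing the data. The members' median of -0.80 was -0.58 with size-only, -0.75 with upper quartile and -0.74 with loess scaling, and -0.80 and -0.76 with KD5 or KD2 alone. The plastid members' median of -0.90 was -0.68 with size-only and -0.85 with upper quartile scaling, and -0.94 and -0.88 with KD5 or KD2 alone, also added later. Of the genes called over the whole table, 75.5% were higher with size-only scaling and 38.3% with TMM. The cause was not tested. Keeping genes with the excluded words changed nothing, since there were 0. No paired analysis was possible because wild type has 1 library. Depth limits Potri.007G136000 most, with 7 counts in each RNAi library.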

Other observations

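Some chaperones of the authors' table carry descriptions that the membership words miss, and 3 were picked after their values were seen. The match of HSC70-1 (Potri.008G054600), a constitutive cytosolic HSP70 in Arabidopsis, had 121.1 CPM in KD2 and 149.2 CPM in KD5, against 250.2 CPM in wild type. Its log2 fold change of -0.89 (SE 0.16) had the same direction as that of the HSP70 match among the members. The match of calnexin CNX1 (Potri.012G111100), a membrane-bound partner of calreticulin in the endoplasmic reticulum, had 372.2 CPM in KD2 and 396.4 CPM in KD5, against 597.3 CPM in wild type. CNX1 thus stood lower in the RNAi libraries and CRT3 higher. The match of PDIL1-6 (Potri.001G183500), of the protein disulfide isomerase family, had 49.76 CPM in KD2 and 41.6 CPM in KD5, against 24.88 CPM in wild type, and was higher in both RNAi libraries.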
